A study of Rattus norvegicus with 12 samples.

Results

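The genes of serine synthesis and of the ATF4 stress response were followed through a rat model of osteoarthritis (OA). The group held 10 genes, namely Phgdh, Psat1, Psph, Shmt2, Mthfd2, Asns, Slc7a11, Atf4, Ddit3 and Trib3. These genes were chosen by their known roles with earlier log2 differences of these same 12 arrays in view, so the tests of OA against sham below describe the size of a difference against the spread of the arrays and are no independent support. The values used were those of all probe sets whose only symbol is one of the 10 genes, which gave 12 of the 31099 probe sets of the array and 10 of the 14217 genes that such a probe set stands for. Trib3 had 3 probe sets and each other gene 1. A filter that asked for a log2 value above 4 in at least 3 of the 12 arrays kept 11 of the 12, and the one left out was a Trib3 probe set.

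Cartilage from rat knee joints was homogenized whole, and its total RNA was measured on 12 Affymetrix arrays, 3 for each of 4 groups: OA at 8 weeks, sham at 8 weeks, OA at 2 weeks and sham at 2 weeks, each counted from the operation. OA surgery is an operation on the knee that induces the disease, and sham surgery is its control operation. The sources used here give no strain, sex or age and do not say whether the replicates of a group came from separate animals or from pools, so a p-value here reflects only how these samples spread, which may be technical. All values are the deposited log2 signals, which serve to compare 1 probe set between arrays and not 1 gene with another. As whole cartilage was measured, fewer cells of a type and less RNA per cell cannot be told apart.

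Serine is made from an intermediate of glycolysis in 3 steps, catalysed in turn by PHGDH, PSAT1 and PSPH. SHMT2 and MTHFD2 then pass a carbon of serine into the folate pool of mitochondria, which feeds nucleotide synthesis, and the same step yields glycine, the most common residue of collagen. ATF4 is a transcription factor whose translation rises when the initiation factor eIF2 is phosphorylated, as under amino acid shortage or a load of unfolded protein in the endoplasmic reticulum, and it switches on genes of amino acid supply, among them several of those above. In mice, Atf4 is needed for normal growth plate cartilage.

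Of 16 chondrocyte markers listed, 12 had a probe set with that symbol alone, and all 12 passed the filter. Their mean log2 level lay between 13.8 and 14.5 in every array. With no other tissue beside it, this level does not test the cartilage label. The mean level of skeletal muscle markers, described below, reached 14.4 in OA replicate 1 at 8 weeks. An array had 48.2% to 49.8% of its probe sets above the filter level of 4, and it correlated with the others of its group at 0.973 to 0.988 on average. The 2-week and the 8-week arrays also differed in probe sets that hardly varied within a time: of 13843 whose SD within a time, pooled over both times, was below 0.1, 380 (2.75%) differed by more than 1 between the times. Time after surgery therefore cannot be told apart from anything else that differed between the 2 sets of arrays.

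The promoters of 4 genes are shown, those of the 3 genes called lower in OA than in sham at 8 weeks (Phgdh, Psat1 and Mthfd2) and that of Trib3, which holds the single match to the ATF4 motif searched among the members. Each sequence is RefSeq's for the rat assembly GRCr8 and runs from 250 bases before to 50 bases after the start of the gene, on the strand of the gene. Capitals mark the motif matches.
Phgdh: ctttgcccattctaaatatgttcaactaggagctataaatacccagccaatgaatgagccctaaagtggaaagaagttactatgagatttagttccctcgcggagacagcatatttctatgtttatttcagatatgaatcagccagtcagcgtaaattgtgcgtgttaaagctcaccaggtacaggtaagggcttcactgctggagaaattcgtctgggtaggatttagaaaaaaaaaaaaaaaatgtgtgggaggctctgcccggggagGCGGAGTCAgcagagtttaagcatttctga
Psat1: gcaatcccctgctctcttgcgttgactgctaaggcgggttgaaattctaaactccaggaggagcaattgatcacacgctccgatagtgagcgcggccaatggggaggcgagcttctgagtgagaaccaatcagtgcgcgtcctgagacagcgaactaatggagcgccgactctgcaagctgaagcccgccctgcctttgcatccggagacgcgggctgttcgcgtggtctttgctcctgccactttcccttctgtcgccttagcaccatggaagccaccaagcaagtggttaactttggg
Mthfd2: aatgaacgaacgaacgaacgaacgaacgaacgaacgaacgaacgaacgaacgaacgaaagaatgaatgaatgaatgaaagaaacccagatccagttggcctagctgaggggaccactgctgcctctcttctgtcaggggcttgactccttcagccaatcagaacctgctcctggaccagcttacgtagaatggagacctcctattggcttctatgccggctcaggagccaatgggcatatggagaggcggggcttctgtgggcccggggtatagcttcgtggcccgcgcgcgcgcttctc
Trib3: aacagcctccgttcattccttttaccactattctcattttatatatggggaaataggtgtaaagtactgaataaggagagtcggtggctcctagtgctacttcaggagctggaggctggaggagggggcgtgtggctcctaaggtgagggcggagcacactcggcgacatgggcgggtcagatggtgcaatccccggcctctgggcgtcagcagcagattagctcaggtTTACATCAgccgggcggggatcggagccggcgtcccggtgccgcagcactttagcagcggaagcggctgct
The windows lie on the minus strand at chr2:188624740-188625039 for Phgdh, chr1:222645359-222645658 for Psat1, chr4:117380301-117380600 for Mthfd2 and chr3:161275484-161275783 for Trib3. Both strands of all 10 promoters were searched for TGATGNAA, the core of the C/EBP-ATF response element that ATF4 binds with a partner, and for TGACNNNGC, the core of the antioxidant response element that NRF2 binds. The first stood in 1 of the 10, in Trib3 as TTACATCA on the opposite strand, 21 bases before the start, and in 3.98% of the 33469 RefSeq rat promoters of the same length. The second stood in 1 of the 10, in Phgdh as GCGGAGTCA on the opposite strand, 20 bases after the start, and in 12.1% of all promoters. The matches do not overlap. A match is a string of letters and not a shown binding site, and the other 8 promoters only lack these letters within the window.

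At 8 weeks the RNA signals for the first and second enzyme of serine synthesis were lower in OA cartilage, and that for the last was not detectably so. Phgdh, which encodes the dehydrogenase of the first step, had log2 values of 4.22, 4.98 and 4.99 in the OA arrays, against 6.77, 6.93 and 8.15 in the sham arrays. All OA arrays lay below all sham arrays, and the gap between the groups, from 4.99 to 6.77, was wider than either group. The difference was -2.55 ± 0.43 (log2, SE), or 5.86-fold lower in OA (adjusted p = 0.0153). The OA values sit just above the level of 4 used as the filter, where the array compresses differences, so the fold is not exact.

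Psat1 encodes the aminotransferase of the second step and had 7.16, 8.47 and 7.49 in OA at 8 weeks, against 9.43, 9.41 and 10.02 in sham. The groups did not overlap, and OA replicate 2 stood nearest to sham. The difference was -1.92 ± 0.45, or 3.78-fold lower in OA (adjusted p = 0.0484). Psat1 was called in 7 of the 23 alternative fits described below, over which the adjusted p ranged from 0.0195 to 0.421. Psph, whose phosphatase releases free serine in the last step, had 8.56, 8.64 and 8.71 in OA, against 8.69, 8.55 and 9.06 in sham. These ranges overlapped, and the difference of -0.13 ± 0.14 did not pass the test (adjusted p = 0.647).

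At 2 weeks no serine enzyme passed the test. Phgdh had 8.12, 7.76 and 6.92 in OA, against 8.43, 8.37 and 9.17 in sham, again with no overlap. Its difference was -1.06 ± 0.43, with an unadjusted p of 0.0341 and an adjusted p that rounds to 1. Psat1 had 9.54, 9.12 and 7.86 in OA, against 9.90, 9.70 and 9.27 in sham, so that the groups overlapped and OA replicate 3 stood below the other arrays of that time. Its difference was -0.79 ± 0.45. Psph differed by -0.06 ± 0.14, with a range of 8.66 to 8.99 in OA and of 8.84 to 8.99 in sham.

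Set in order, the mean Phgdh level was 4.73 ± 0.44 in OA at 8 weeks, 7.28 ± 0.76 in sham at 8 weeks, 7.60 ± 0.62 in OA at 2 weeks and 8.66 ± 0.45 in sham at 2 weeks (SD, n = 3 each). The 8-week sham and the 2-week OA arrays overlapped, and the other neighbours in this order did not. Psat1 averaged 7.70 ± 0.68 in OA at 8 weeks, 9.62 ± 0.35 in sham at 8 weeks, 8.84 ± 0.88 in OA at 2 weeks and 9.63 ± 0.32 in sham at 2 weeks (SD, n = 3 each). The sham mean of Psat1 differed by -0.01 between 8 and 2 weeks, and the 2-week OA arrays overlapped each of the other groups.

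Of the mitochondrial one-carbon enzymes, Mthfd2 was lower in OA at 8 weeks, while Shmt2 was not separated from sham. Mthfd2 encodes the dehydrogenase and cyclohydrolase that oxidises the folate-bound carbon. It had 8.32, 9.41 and 9.04 in OA at 8 weeks, against 10.15, 9.78 and 10.07 in sham, with no overlap and with OA replicate 1 lowest. The difference was -1.08 ± 0.24, or 2.11-fold lower in OA (adjusted p = 0.0414). The labels do not say that replicate numbers pair arrays. At 8 weeks, deviations from the group mean correlated at 0.119 to 0.239 between OA and sham arrays of the same number. With the replicate number as a block within each time, a fit added after seeing the data, the adjusted p for Mthfd2 was 0.0658. This does not pass the threshold of 0.05. At 2 weeks Mthfd2 had 9.57, 9.26 and 9.62 in OA, against 9.84, 9.66 and 9.64 in sham, which nearly touched at 9.62 and 9.64 and differed by -0.23 ± 0.24.

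Shmt2, whose enzyme splits serine into glycine and the one-carbon unit, had 10.61, 10.19 and 11.12 in OA at 8 weeks, against 10.60, 10.75 and 11.22 in sham. The groups overlapped, and the difference was -0.22 ± 0.26 (adjusted p = 0.681). At 2 weeks its difference was -0.38 ± 0.26, with a range of 10.51 to 10.95 in OA and of 10.76 to 11.36 in sham.

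**Figure D1:**
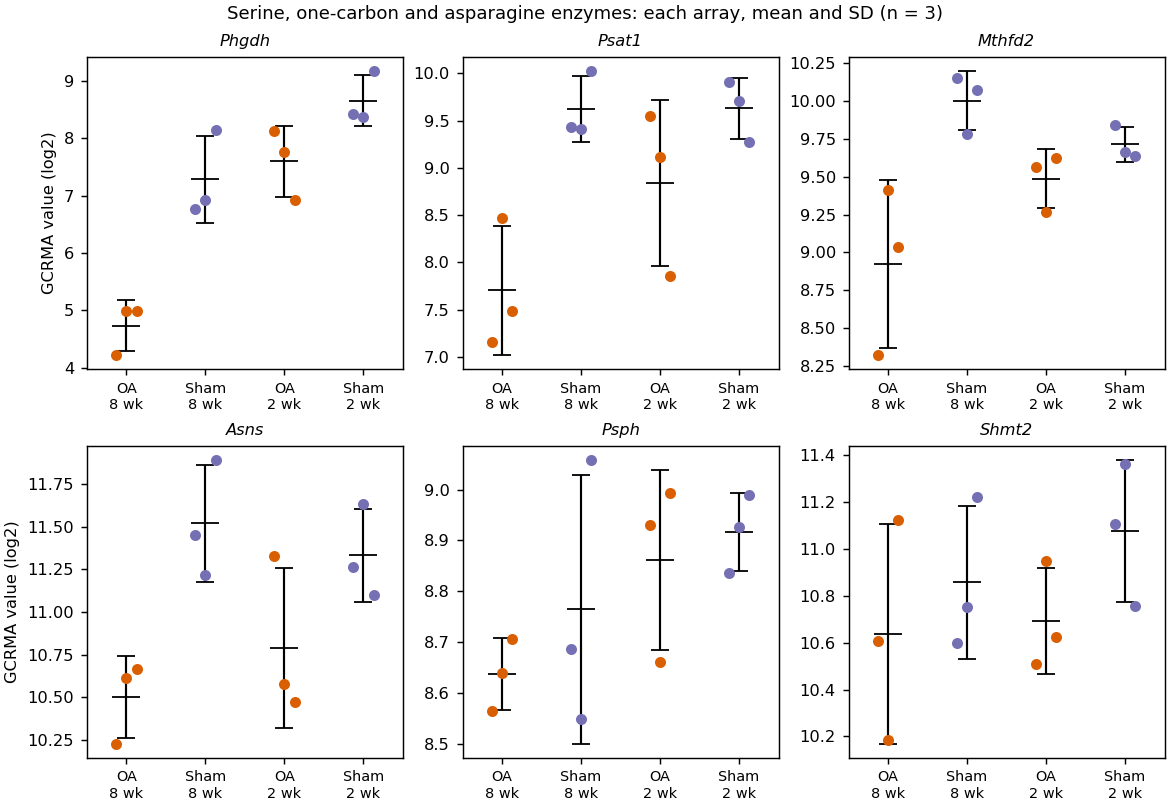
Deposited log2 signal of each array for the enzymes of serine, one-carbon and asparagine synthesis, with the 4 groups on the x axis. Points are arrays and bars are the mean and SD of 3. The 8-week OA arrays lie below all 8-week sham arrays for Phgdh, Psat1, Mthfd2 and Asns, and overlap them for Psph and Shmt2.

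Asns, which encodes asparagine synthetase and is a classic ATF4 target, was 2.03-fold lower in OA at 8 weeks but fell short of the threshold. It had 10.23, 10.61 and 10.66 in OA, against 11.45, 11.22 and 11.89 in sham. The OA arrays all lay below the sham arrays, and the difference was -1.02 ± 0.26 (adjusted p = 0.0627). At 2 weeks it had 11.33, 10.57 and 10.47 in OA, against 11.26, 11.63 and 11.10 in sham. OA replicate 1 lay within the sham range while the other two OA arrays lay below it, and the difference was -0.54 ± 0.26.

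Slc7a11, the cystine importer that supplies cysteine for glutathione and is a target of both ATF4 and NRF2, was not lower in OA at 8 weeks. It had 7.33, 7.85 and 7.32 in OA, against 7.17, 7.27 and 7.68 in sham, a difference of 0.13 ± 0.27 with overlapping groups (adjusted p = 0.845). At 2 weeks the values were 6.62, 6.99 and 6.07 in OA, against 7.04, 7.35 and 6.58 in sham, so that the groups overlapped, and the difference was -0.43 ± 0.27.

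Atf4 itself lay slightly lower in OA at both times and passed the test at neither. It had 13.14, 13.00 and 13.12 in OA at 8 weeks, against 13.34, 13.37 and 13.60 in sham. At 2 weeks it had 13.27, 13.07 and 13.29 in OA, against 13.35, 13.36 and 13.46 in sham. The OA arrays stayed below the sham arrays at each time. The differences were small, -0.35 ± 0.10 at 8 weeks (adjusted p = 0.0861) and -0.18 ± 0.10 at 2 weeks. ATF4 is controlled largely through translation, which these arrays do not measure.

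Ddit3, which encodes CHOP, a transcription factor of prolonged endoplasmic reticulum stress, had higher values in OA at 8 weeks, just short of the threshold. It had 9.82, 9.15 and 9.47 in OA, against 8.82, 8.50 and 8.83 in sham. Every OA array lay above every sham array, and the difference was 0.77 ± 0.19, or 1.70-fold higher in OA (adjusted p = 0.0548). With the replicate number as a block within each time the adjusted p was 0.0285, which passes the threshold. That pairing is not given by the labels, and the fit was added after seeing the data. At 2 weeks the groups overlapped, with 8.95, 8.83 and 8.93 in OA, against 9.02, 8.72 and 9.28 in sham, and a difference of -0.11 ± 0.19.

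Trib3 encodes a pseudokinase that is induced by ATF4 and CHOP and dampens their activity. Its best measured probe set, 1370694_at, had 5.24, 5.86 and 5.25 in OA at 8 weeks, against 5.25, 5.17 and 5.24 in sham. The groups overlapped, only OA replicate 2 stood out, and the difference was 0.23 ± 0.16 (adjusted p = 0.448). At 2 weeks it ranged from 4.51 to 4.80 in OA and from 4.52 to 4.69 in sham.

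The second Trib3 probe set, 1370695_s_at, was nearly constant within a time and differed between the times. It had 5.54, 5.56 and 5.52 in OA and 5.51, 5.49 and 5.53 in sham at 8 weeks, and 3.22, 3.26 and 3.22 in OA and 3.26, 3.25 and 3.17 in sham at 2 weeks. It passed the filter through its 6 arrays at 8 weeks alone, had an SD of 0.0294 within a time, and was 2.30 higher at 8 weeks over both surgeries. It is therefore one of the 380 probe sets described above, of which 246 were higher at 8 weeks. The remaining Trib3 probe set, 1386321_s_at, stayed at or below 3.00 in all arrays and was not tested.

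**Figure D2:**
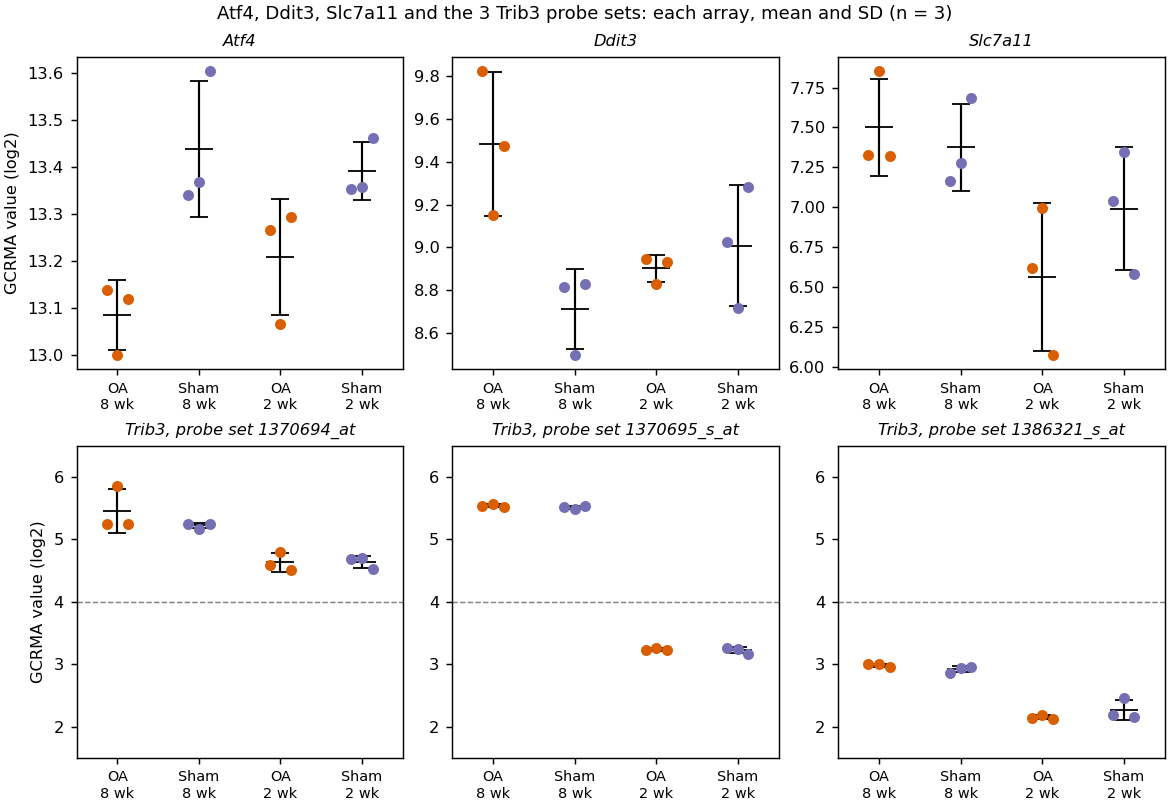
Deposited log2 signal of each array for Atf4, Ddit3, Slc7a11 and the 3 Trib3 probe sets, with the 4 groups on the x axis and a dashed line at the filter level of 4 in the lower panels. Points are arrays and bars are the mean and SD of 3. Ddit3 is higher and Atf4 lower in every 8-week OA array than in every 8-week sham array, and Trib3 probe set 1370695_s_at separates the times and not the surgeries.

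Counted over the 11 probe sets tested, 3 were called lower in OA at 8 weeks (Phgdh, Psat1 and Mthfd2) and 0 higher, where a call is a limma adjusted p under 0.05. Among all 15934 probe sets tested, 3.46% were called at 8 weeks, 1.95% as lower and 1.51% as higher. The OA arrays all lay below the sham arrays for 5 of the 11 (with Asns and Atf4 added), against 12.8% of all probe sets, and all above them for 1, Ddit3, against 12.3%. The median difference of the 11 was -0.22, beside 0.01 over all probe sets, with 7 of the 11 lower in OA. These counts are of the fit without a replicate block. With the replicate number as a block within each time, the 3 called were Phgdh and Psat1 as lower and Ddit3 as higher, beside 6.51% of all probe sets.

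At 2 weeks limma called 0 of the 11 and 0% of all probe sets, and 1 of the 11, Phgdh, had an unadjusted p under 0.05. Over the 15934 probe sets, 169 had an unadjusted p no larger than that of Phgdh (0.0341). Here 10 of the 11 were lower in OA, with a median of -0.23 beside -0.01 over all probe sets. The OA arrays lay below all sham arrays for 3 of the 11 (Phgdh, Mthfd2 and Atf4), against 3.46% of all probe sets. The same 3 did so at both times, which held for 0.659% of all probe sets. As the genes were chosen with these differences in view, nothing is read from these shares.

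Whether the OA effect differed between the times was tested as an interaction, and limma called 0 of the 11, beside 0.138% of all probe sets. Of the 11, 3 had an unadjusted p under 0.05. Over the 15934 probe sets, 1285 had an unadjusted p no larger than that of Phgdh (0.0339). The OA difference at 8 weeks minus that at 2 weeks was -1.50 ± 0.61 for Phgdh (adjusted p = 0.418), -1.13 ± 0.63 for Psat1 (adjusted p = 0.541) and -0.85 ± 0.34 for Mthfd2 (adjusted p = 0.410). For Ddit3 it was 0.88 ± 0.26, with an unadjusted p of 0.00790 and an adjusted p of 0.281. The larger 8-week differences of these genes were thus not shown to differ from those at 2 weeks.

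**Figure D3:**
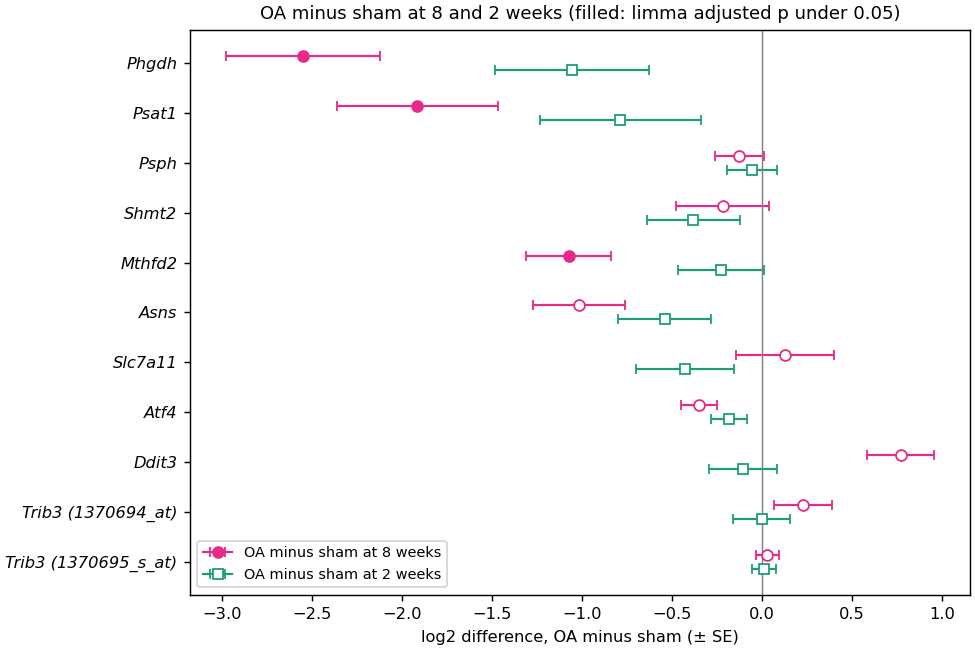
Log2 difference of OA minus sham for the 11 tested probe sets at 8 weeks (circles) and at 2 weeks (squares), with SE bars from the limma fit. Filled symbols passed an adjusted p under 0.05, which holds for Phgdh (-2.55), Psat1 (-1.92) and Mthfd2 (-1.08) at 8 weeks and for none at 2 weeks.

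Trib3 probe set 1370695_s_at, which passed the filter through the 8-week arrays alone, was left out of the counts between the times. Of the other 10, all above 4 in at least 3 arrays of each time, 4 were called within OA, beside 29.7% of the 14523 probe sets that met the same condition. Phgdh was lower at 8 than at 2 weeks by a log2 difference of -2.87 ± 0.43, or 7.31-fold (adjusted p = 0.000541). Slc7a11 was higher at 8 weeks by 0.94 ± 0.27 (adjusted p = 0.0235), Ddit3 by 0.58 ± 0.19 (adjusted p = 0.0357) and Trib3 probe set 1370694_at by 0.82 ± 0.16 (adjusted p = 0.00281). The calls of Ddit3 and Slc7a11 depend on the scaling: with array medians equalized the adjusted p of Ddit3 was 0.162, and with added quantile normalization that of Slc7a11 was 0.0985.

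Within sham, 1 of the 10 was called between the times, beside 14.1% of the 14523. This was Trib3 probe set 1370694_at, which was higher at 8 weeks by 0.59 ± 0.16 (adjusted p = 0.0254), with an adjusted p of 0.293 after added quantile normalization. Phgdh differed by -1.37 ± 0.43 in sham (adjusted p = 0.0515), Slc7a11 by 0.38 (adjusted p = 0.458) and Ddit3 by -0.29 (adjusted p = 0.390). These comparisons share arrays with those of OA against sham.

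The other genes of the pathway were drawn from 6 lists, read with 1 probe set for each gene. Of all 9247 genes, 2.45% were called lower and 1.03% higher in OA at 8 weeks, 55.4% lay lower and the median difference was -0.03. The list of other serine and one-carbon genes kept 18 of its 26 genes and had a median of 0.01, with 8 lower and 10 higher. Its single called gene was Aldh1l2, the mitochondrial enzyme that oxidises the folate-bound carbon to carbon dioxide. Aldh1l2 averaged 11.14 in OA and 12.56 in sham, a difference of -1.42 ± 0.23 (adjusted p = 0.0135).

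The list of other ATF4 targets kept 22 of 30 genes, of which 15 lay lower, with a median of -0.22. It held calls in both directions, which ranged over the 23 alternatives from 0 to 5 lower and from 0 to 1 higher. Slc3a2, the heavy chain that carries amino acid transporters to the membrane, averaged 12.04 in OA and 12.75 in sham (-0.71 ± 0.16, adjusted p = 0.0426). Aldh18a1, which makes the precursor of proline, averaged 11.17 in OA and 11.80 in sham (-0.64 ± 0.15, adjusted p = 0.0499). Stc2, a secreted glycoprotein induced by stress, averaged 9.44 in OA and 8.20 in sham (1.24 ± 0.26, adjusted p = 0.0356).

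The next list held 19 tested aminoacyl-tRNA synthetases, which load amino acids onto tRNAs and include many ATF4 targets, and Xpot, which exports tRNAs from the nucleus. All 20 had a negative difference, with a median of -0.27, at 8 weeks, and 2 were called lower. Gars1, the glycine enzyme, averaged 11.72 in OA and 12.49 in sham (-0.77 ± 0.13, adjusted p = 0.0171). Cars1, the cysteine enzyme, averaged 9.84 in OA and 10.45 in sham (-0.61 ± 0.12, adjusted p = 0.0261). With the macrophage marker level as a covariate 16 of the 20 lay lower, the smallest number over the 23 alternatives run.

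The remaining 3 lists held 1 call between them. The list of eIF2 kinases, eIF2 and eIF2B subunits, which act upstream of ATF4, together with their regulators Gcn1, Impact and Ppp1r15b, had 0 of 15 called by limma, 3 with an unadjusted p under 0.05, and a median of -0.11. The list of chaperones of the endoplasmic reticulum, with Xbp1, Atf6 and degradation genes of that compartment, had 16 of 19 lower, a median of -0.20 and 1 call, Manf, a secreted stress protein of that compartment (-0.47 ± 0.09, adjusted p = 0.0261). The glutathione and NRF2 targets had 0 of 11 called, 1 with an unadjusted p under 0.05, and a median of 0.07. The share of all genes with an unadjusted p under 0.05 was not counted. At 8 weeks 1028 of the 15934 probe sets had an unadjusted limma p no larger than that of Atf4 (0.00555). For that of Trib3 1370694_at (0.183) the number was 6504. At 2 weeks limma called 0 of the 103 genes of the 6 lists, and 1 had an unadjusted p under 0.05, with list medians from -0.13 for the other ATF4 targets to 0.04 for the glutathione and NRF2 targets.

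**Figure D4:**
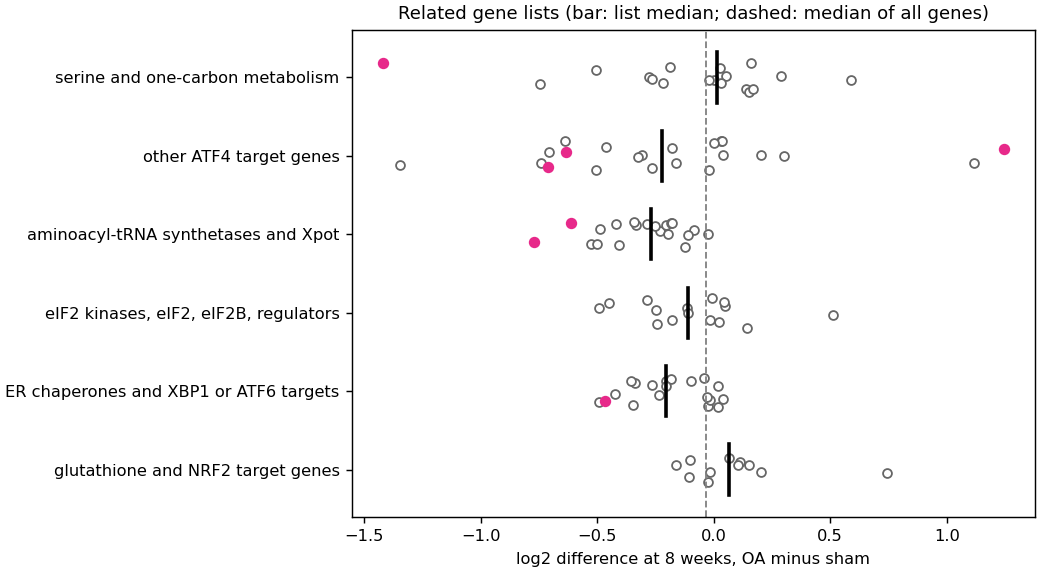
Log2 difference of OA minus sham at 8 weeks for each gene of 6 related lists. Points are genes, filled where the limma adjusted p was under 0.05, black bars are list medians and the dashed line is the median of all 9247 genes. All 20 genes of the synthetase list lie below 0, and the other ATF4 targets hold called genes on both sides.

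Genes with a pattern most like that of a member were sought by the mean absolute difference over the 12 arrays between log2 values centred on their own mean, for members with an SD above 0.5. This distance grows with a gene's own spread, so it ranks genes within a member and not between members. For Asns they were Calml3 at 0.154, Pck2 at 0.194 and Slc7a1 at 0.210. For Psat1 they were Lcp1 at 0.380, A2m at 0.405 and Olfml2b at 0.409. For Phgdh they were Rnf128 at 0.403, Gngt2 at 0.457 and Enpp5 at 0.465. As these 9 were picked for following the members over the same arrays, their negative differences of OA minus sham at 8 weeks are part of that choice. They ran from -0.64 for Slc7a1 to -2.23 for Enpp5, and Lcp1, a protein of blood-derived cells, differed by -1.89.

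Marker levels of several other cell types also differed between OA and sham at 8 weeks. The mean log2 level of 18 skeletal muscle markers was 14.4, 11.1 and 9.63 in OA at 8 weeks, against 10.3, 5.55 and 7.48 in sham, and 17 of the 18 lay higher in OA, with 0 called and 10 at an unadjusted p under 0.05. The level of 17 macrophage markers was 6.89, 7.12 and 7.00 in OA, against 7.69, 10.1 and 10.4 in sham, and 16 lay lower with 4 called. The level of 6 osteoclast markers was 9.98, 10.9 and 11.1 in OA, against 12.5, 12.5 and 12.8 in sham, with 5 called lower. Of 10 osteoblast and osteocyte markers, 10 lay lower and 3 were called. Of the 12 chondrocyte markers, 8 lay lower and 3 were called, all of them chains of collagen IX. All 7 endothelial and all 3 erythroid markers tested lay lower, with 0 called in each list and 4 and 2 of them at an unadjusted p under 0.05, and 1 of 4 adipocyte markers was called lower. No share of all genes stands beside these unadjusted counts, so nothing is read from them.

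**Figure D5:**
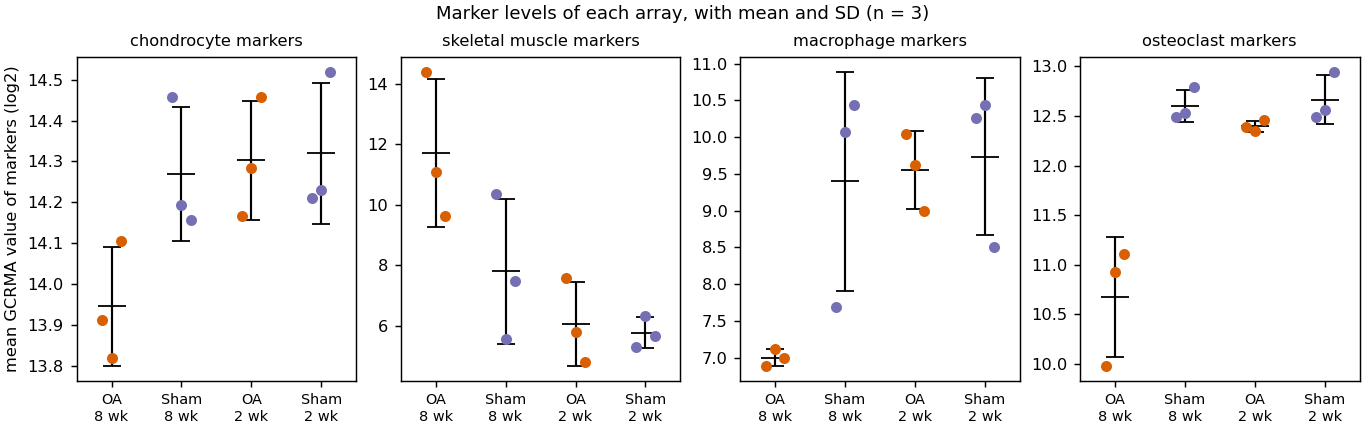
Mean log2 level of the chondrocyte, skeletal muscle, macrophage and osteoclast markers in each array, with the 4 groups on the x axis. Points are arrays and bars are the mean and SD of 3. At 8 weeks the osteoclast and macrophage levels are lower in every OA array than in every sham array, and sham replicate 1 has a macrophage level of 7.69, close to the OA arrays.

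In sham replicate 1 at 8 weeks the macrophage level was nearest to that of the OA arrays and the muscle level, 10.3, lay above that of OA replicate 3. In that single array Phgdh was 6.77, the lowest of its group, Psat1 9.43 and Mthfd2 10.15, each above all 8-week OA arrays. Its osteoclast level of 12.5 and its osteoblast and osteocyte level of 12.4 also lay above all 8-week OA arrays. The part of cell content in the differences was not tested by this 1 array. With the muscle level as a covariate the 8-week difference was -2.36 ± 0.60 for Phgdh (adjusted p = 0.169), -1.99 ± 0.63 for Psat1 (adjusted p = 0.270) and -0.88 ± 0.32 for Mthfd2 (adjusted p = 0.343). With the macrophage level as a covariate it was -2.12 ± 0.63 for Phgdh (adjusted p = 0.146), -1.16 ± 0.60 for Psat1 (adjusted p = 0.421) and -1.12 ± 0.37 for Mthfd2 (adjusted p = 0.179). In both fits the standard errors were larger than without a covariate. The difference of Phgdh was smaller in both fits, that of Psat1 with the macrophage level and that of Mthfd2 with the muscle level. The difference of Psat1 with the muscle level and that of Mthfd2 with the macrophage level were slightly larger. Limma called 0 of the 11 at 8 weeks in either fit, in which 41 and 220 of the 15934 probe sets were called, against 552 without a covariate. The part of the osteoclast and osteoblast markers in these differences was not tested.

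Single arrays mattered at 8 weeks. Sham replicate 3 had the highest value of its group for 9 of the 11 member probe sets, and OA replicate 1, the array with the highest muscle level, the lowest of its group for 6. How often these arrays were highest or lowest over all probe sets was not counted. Without sham replicate 3, 0 of the 11 were called, beside 0.690% of all probe sets, against 3.46% with all arrays. The difference of Phgdh was then -2.12 (adjusted p = 0.0545). Phgdh was called under each of the other 11 omissions of an array. Psat1 was called only when OA replicate 3 at 2 weeks or OA replicate 2 at 8 weeks was left out, and Mthfd2 only when OA replicate 1 or OA replicate 2 at 8 weeks was. Over the 12 omissions the adjusted p ran from 0.0255 to 0.178 for Psat1 and from 0.0253 to 0.145 for Mthfd2.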

How the data were processed

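Total RNA of rat knee cartilage was measured on 12 biotin-labelled Affymetrix arrays, with 3 per group. The deposited log2 values were made by the authors with GCRMA, per the submitters' processing notes, with no version stated. They were used without further normalization. Of the 31099 probe sets, 20832 carried exactly 1 gene symbol in the annotation of the array, 436 several and 9831 none. The Entrez ID of 20764 was in the RefSeq gene table of GRCr8, which changed 0 symbols. Control probe sets (57) were left out. The filter on log2 above 4 in at least 3 of 12 arrays kept 15934, and 15108 were dropped. A gene's value was that of the probe set with 1 symbol and the highest mean, for 9247 genes.

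One mean per group was fitted with limma (version 3.58.1, under R 4.3.3), whose moderated variances had 8 residual and 1.94 prior degrees of freedom. P-values were adjusted by Benjamini-Hochberg over the 15934 probe sets, and a call is an adjusted p under 0.05. The number of arrays limits the precision. Tables, promoters and plots used pandas 2.3.3, numpy 2.4.6 and matplotlib 3.10.9 under Python 3.11.15.

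The members and the 14 gene lists (238 genes, 6 related lists and 8 of cell type markers) were chosen with earlier results of these data known. The text names all members, up to 3 called genes per direction of each related list, and the 3 genes most like each member with an SD above 0.5. Over the 6 pairs of arrays with the same replicate number within a time, deviations from the group mean correlated at 0.119 to 0.527. Arrays of OA and sham with other numbers ran from -0.381 to 0.142 within a time. Arrays with other numbers and of other times ran from -0.505 to 0.640, so the pairing is not certain. The numbers were taken to pair the arrays in the block fits only. The pairing comes from the data and not from the labels. The alternatives were array weights, equalized array medians, quantile normalization on top of GCRMA, no filter or one at log2 6, a robust variance trend, the replicate block, only the 6 arrays compared, muscle or macrophage marker levels as a covariate, and each array left out. The replicate block within each time, and the condition for counts between the times (above 4 in at least 3 arrays of each), were added after seeing the data.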

Additional observations from a re-analysis of the deposited data

How the results depend on the processing

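Of 1222 member differences recomputed under the alternatives, 1107 kept their direction and their side of the threshold, 62 lost a call, 20 gained one and 33 changed sign, and the cause was not tested. At 8 weeks the 3 members called in OA against sham became 1 with no filter or with equalized array medians, 6 with array weights, and 0 with only the 6 arrays compared or with the muscle or macrophage marker level as a covariate. Leaving out 1 array gave 0 to 4. Over all probe sets the 552 calls became 362 with no filter, 283 with equalized medians, 1567 with array weights, 27 with only 6 arrays, 41 and 220 with the muscle and macrophage covariates, and 110 to 979 with 1 array left out, of which 110, 132 and 979 were without sham 8 weeks replicates 3, 2 and 1. With the replicate block within each time 3 members were called (Phgdh, Psat1 and Ddit3) and 1037 probe sets. With the replicate block over all arrays the adjusted p was 0.0577 for Psat1, 0.0622 for Mthfd2 and 0.0244 for Ddit3. Array weights added calls of Asns (adjusted p = 0.0394), Atf4 (0.0299) and Ddit3 (0.0263). Over the 23 alternatives the 8-week calls as lower ranged from 0 to 2 in the list of serine and one-carbon genes, 0 to 5 in the other ATF4 targets, 0 to 6 in the synthetase list and 0 to 3 in the chaperone list. At 2 weeks and for the interaction limma called 0 members under every alternative run.

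Between 8 and 2 weeks the counts given here include Trib3 1370695_s_at. That probe set passed the filter through its 8-week arrays alone, so nothing is read from its calls. The 5 calls in OA, beside 5430 of all 15934 probe sets, became 3 with a filter at log2 6 or the muscle covariate. Beside these stood 3676 of 13473 and 4623 of 15934. With 1 array left out the 5 became 3 to 6, beside 4454 to 5574. The 2 calls in sham, beside 2979, became 0 with a filter at 6, which removed both Trib3 probe sets (beside 1523). They became 1 with the muscle covariate (beside 2993) and 1 to 3 with 1 array left out (beside 2428 to 3148). Equalizing the array medians moved the median 8-minus-2-week difference of all probe sets to -0.09 in sham and in OA, against 0.08 and 0.09 as deposited. With the medians equalized, Phgdh stayed lower at 8 weeks in OA, at -3.05.

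The differences that changed sign were at most 0.22 in size before the change, the largest being that of Shmt2 at 8 weeks (-0.22). With quantile normalization Trib3 1370694_at at 2 weeks was 0.016 and Atf4 between times in sham -0.0062, and with equalized medians Atf4 between times in sham was -0.13. With array weights Psph was 0.013 and Trib3 1370695_s_at -0.012 at 2 weeks, Slc7a11 was -0.013 at 8 weeks, Psat1 between times in sham was 0.0081 and Shmt2 between times in OA was 0.13. The muscle covariate gave 0.027 for Psat1 between times in sham and 0.036 for Shmt2 between times in OA. The macrophage covariate gave 0.0047 for Trib3 1370694_at at 2 weeks, 0.20 for Shmt2 at 8 weeks and 0.14 for Shmt2 between times in OA. With 1 array left out, the OA difference at 2 weeks ran from -0.12 to 0.045 for Psph, -0.25 to 0.031 for Ddit3, -0.085 to 0.060 for Trib3 1370694_at and -0.018 to 0.026 for Trib3 1370695_s_at. At 8 weeks it ran from -0.24 to 0.020 for Psph, -0.46 to 0.0074 for Shmt2 and -0.049 to 0.28 for Slc7a11. The interaction ran from -0.18 to 0.076 for Psph and from -0.078 to 0.39 for Shmt2. Between times in sham the range was -0.21 to 0.13 for Psat1 and -0.037 to 0.095 for Atf4, and in OA -0.30 to 0.17 for Shmt2. Signals near the floor of the array limit Phgdh in OA at 8 weeks and all Trib3 probe sets.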

Other observations

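Some ATF4 targets that did not pass the test were picked after their values were seen. At 8 weeks Chac1, which degrades glutathione, averaged 6.69 in OA and 8.04 in sham (-1.35 ± 0.46, adjusted p = 0.138). Atf3, a stress-induced transcription factor, averaged 8.42 in OA and 7.31 in sham (1.12 ± 0.56, adjusted p = 0.285). The transporters Slc1a5 and Slc7a1 differed by -0.74 ± 0.18 and -0.64 ± 0.17 (adjusted p = 0.0533 and 0.0741), while the growth inhibitors Sesn2 and Ddit4 differed by -0.16 ± 0.14 and -0.18 ± 0.30.

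Array weights estimated by limma ranged from 0.452 for OA replicate 1 to 2.35 for sham replicate 3, both at 8 weeks. These are the arrays with the lowest value of their group for 6 and with the highest for 9 of the 11 member probe sets.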
